A study of Rattus norvegicus with 24 samples.

Results

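Opioid and tachykinin signalling was measured in the rat hypothalamus through 8 genes, chosen by symbol in the array's probe annotation. Of these, 5 encode peptide precursors (Penk, Pdyn, Pnoc, Tac1 and Tac3) and 3 encode opioid receptors (Oprm1, Oprk1 and Oprd1). They are read by 12 of the 31042 rat probe sets on the array, 6 for peptides and 6 for receptors, and are 8 of the 14217 genes with a single symbol. The study set (R,S)-linalool odour during restraint against restraint alone, and restraint against no restraint, in 18 male Wistar rats aged 7 weeks. Linalool rats (n = 6) were restrained for 2 h in a 40 L box in which 20 µL of the odorant had evaporated. Stress rats (n = 6) were restrained for 2 h without odour, and control rats (n = 6) had neither treatment. A hypothalamic block from each rat gave 1 array, a 3' expression array in which a probe set is a group of short probes to the 3' end of a transcript.

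Opioid peptides are cut from long precursors. Proenkephalin (Penk) yields the enkephalins, which act mainly on delta (Oprd1) and mu (Oprm1) receptors. Prodynorphin (Pdyn) yields the dynorphins, the preferred ligands of the kappa receptor (Oprk1), and prepronociceptin (Pnoc) yields nociceptin, which acts on Oprl1. Tac1 encodes substance P and neurokinin A, and Tac3 encodes neurokinin B, the ligand of Tacr3. In the hypothalamus, enkephalin and dynorphin are made by several neuroendocrine cell groups, and arcuate neurons that drive gonadotropin release make neurokinin B together with dynorphin. Penk, Pdyn and Tac1 are also abundant in projection neurons of the striatum, which lies beside the dissected block.

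The sequences around the annotated starts of Pdyn, Tac1 and Oprd1, each with at least 1 match to the motifs below, are shown. They come from RefSeq's GRCr8 assembly, which had promoter entries for 4 of the 8 genes, and run 5′ to 3′ on the gene's own strand. Capitals mark the motifs that were found: a TATA box (TATAAA), an E-box (CACGTG) and a cAMP response element half-site (TGACG, which reads CGTCA on the other strand).
Pdyn, chr3:137366454-137366753, minus strand: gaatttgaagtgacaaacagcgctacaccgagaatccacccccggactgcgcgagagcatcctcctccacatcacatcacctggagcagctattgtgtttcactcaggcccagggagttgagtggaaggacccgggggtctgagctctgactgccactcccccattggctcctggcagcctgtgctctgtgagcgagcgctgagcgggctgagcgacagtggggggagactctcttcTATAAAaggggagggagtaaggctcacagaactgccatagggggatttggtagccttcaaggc
Tac1, chr4:36645333-36645632, plus strand: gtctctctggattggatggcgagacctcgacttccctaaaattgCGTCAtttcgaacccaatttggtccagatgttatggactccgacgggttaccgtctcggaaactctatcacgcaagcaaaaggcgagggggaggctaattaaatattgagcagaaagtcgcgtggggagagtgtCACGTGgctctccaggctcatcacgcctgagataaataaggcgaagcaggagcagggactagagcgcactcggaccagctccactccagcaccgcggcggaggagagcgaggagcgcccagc
Oprd1, chr5:149624950-149625249, minus strand: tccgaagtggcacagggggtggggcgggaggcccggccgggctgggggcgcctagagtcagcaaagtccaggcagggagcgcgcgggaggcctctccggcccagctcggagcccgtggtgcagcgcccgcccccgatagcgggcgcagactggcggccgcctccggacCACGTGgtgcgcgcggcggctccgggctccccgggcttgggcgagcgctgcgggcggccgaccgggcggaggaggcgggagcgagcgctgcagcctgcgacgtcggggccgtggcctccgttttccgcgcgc

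The search covered both strands for these 3 motifs and for the AP-1 site (TGANTCA), and no match overlapped another. Counted from the annotated start, the Pdyn TATA box begins at base -13. The Tac1 window holds the half-site at -206, in its CGTCA form, and an E-box at -72. The Oprd1 window holds an E-box at -82, and neither of the Oprm1 entries (not printed) held a match. Among 33469 promoter windows of the same length, 14.2% hold the TATA box, 6.42% the E-box, 21.2% the half-site and 7.33% the AP-1 site. A match here is a run of letters and nothing more.

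The deposited values are read as log2 signals. The authors normalized stress and control arrays as 1 set, and the same stress arrays again with the linalool arrays as another, so each comparison below stays inside its own set and both use the same 6 stress rats. Column medians lay between 8.16 and 8.19 in the stress and control set and between 8.13 and 8.15 in the linalool and stress set. In most probe sets the values hardly vary: 83.5% of those in the stress and control set and 83.7% of those in the linalool and stress set have a residual SD (the spread between rats within groups) under 0.01 log2 units. Such a scale is called compressed here. It applies to 8 of the 12 probe sets, namely all 6 of the receptors, Pnoc and the second Pdyn probe set (1369882_at). Their differences are given in residual SDs, with an SE of about 0.57 for 6 rats against 6. Penk, Tac1, Tac3 and the main Pdyn probe set (1383294_at) are on an open scale and are given in log2 units. Of 20 hypothalamus markers listed, 16 were on the array. Avp, Oxt and Pmch, the neuropeptide genes for vasopressin, oxytocin and melanin-concentrating hormone, averaged 11.33, 10.63 and 12.32 in stress rats, against 11.81, 10.94 and 11.89 in control rats. The proopiomelanocortin gene Pomc averaged 7.43 in both groups, under the array medians and on a compressed scale.

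None of the 12 probe sets passed the test between stress and control rats. Over all rat probe sets 0.554% did so (limma, Benjamini-Hochberg adjusted p under 0.05). The adjusted p of the 12 ran between 0.258 and 0.980. The groups overlapped for every probe set, where 1.78% of all probe sets had groups that did not. The direction was higher in stress rats for 8 probe sets and lower for 4. Their median difference was 0.380 residual SDs, against 0.120 over all probe sets. At an unadjusted p under 0.05 there was 1 probe set of the 12, beside 16% of all. The number of arrays limits the precision, as the intervals below show.

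Penk had its lowest value at 10.00, its median at 10.39 and its highest at 11.02 in stress rats, against 9.99, 10.34 and 11.16 in control rats. The groups covered the same range, with stress rat 2 and control rats 4 and 6 at the top. Penk averaged 10.46 ± 0.343 in stress rats and 10.51 ± 0.474 in control rats (SD, n = 6 each). The difference was -0.05 log2 units (SE 0.234, 95% interval -0.57 to 0.46, limma adjusted p = 0.926). Pdyn on its open-scale probe set ran between 8.66 and 9.39 with a median of 9.10 in stress rats, and between 8.43 and 9.56 with a median of 9.20 in control rats. Control rat 2 was the lowest and control rat 4 the highest of the 12. Pdyn differed by -0.07 (SE 0.189, 95% interval -0.49 to 0.35, limma adjusted p = 0.875), and its second probe set by -0.28 residual SDs. Pnoc, on a compressed scale, differed by -0.46 residual SDs (95% interval -1.71 to 0.79).

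Tac1 ran between 9.27 and 9.66 with a median of 9.38 in stress rats, against 9.11 and 9.83 with a median of 9.43 in control rats. The stress values lay inside the range of the control values. The difference was 0.01 log2 units (95% interval -0.26 to 0.28, limma adjusted p = 0.980). Tac3 ran between 8.07 and 8.54 with a median of 8.45 in stress rats, and between 7.32 and 8.73 with a median of 8.30 in control rats. Control rat 2 stood below all others, and the control SD was 0.509 against an SD of 0.182 in stress rats. The difference was 0.17 (95% interval -0.31 to 0.65, limma adjusted p = 0.729). Without control rat 2 it was -0.05 residual SDs, against 0.43 with it.

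**Figure D1:**
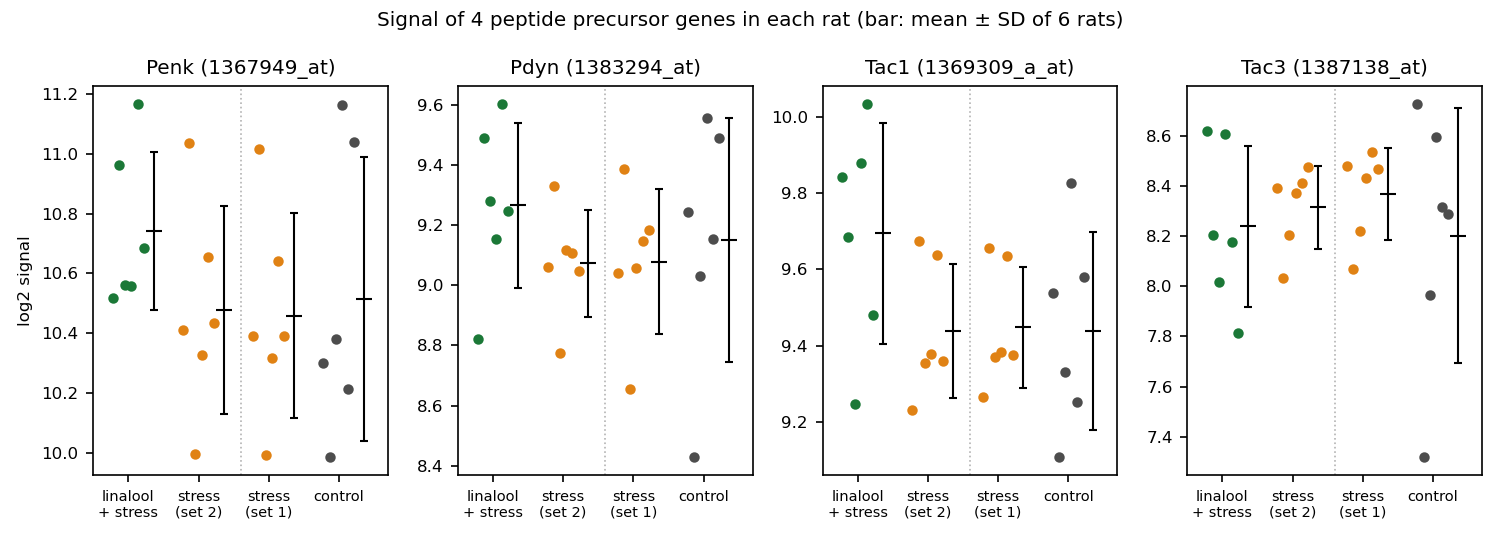
Log2 signal (vertical axes) of Penk, Pdyn, Tac1 and Tac3 in each rat, 1 point per rat, with bars for the mean ± SD of 6 rats. Linalool and stress rats of the set they share stand left of the dotted line, and stress and control rats of the other set stand right of it; all pairs of groups overlap, and Tac3 in control rat 2 lies at 7.32.

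Among the receptors, the mu receptor gene Oprm1 came nearest to the threshold. On probe set 1387461_at its values, as deviations from the mean of the 12 rats, ran between -0.401 and 2.54 residual SDs in stress rats and between -2.25 and 0.630 in control rats. All 6 stress rats lay above the control median, and the ranges overlapped. The difference was 1.43 residual SDs (95% interval 0.174 to 2.69, unadjusted p = 0.0295 and adjusted p = 0.258 in limma, exact permutation p = 0.0238, two-sided, the smallest p possible being 0.00216). The second Oprm1 probe set differed by 0.33 residual SDs (95% interval -0.93 to 1.58). Over the 12 rats the pair of probe sets correlated at -0.518 on the deposited scaling. The kappa receptor gene Oprk1 differed by 0.45, 0.74 and 0.45 residual SDs on its 3 probe sets, and the delta receptor gene Oprd1 by 0.58 (95% interval -0.67 to 1.84).

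None of the 12 probe sets passed the test between linalool and stress rats either. In that comparison 25% of all rat probe sets passed, 14.2% higher and 10.8% lower in linalool rats, and 49.7% of those on an open scale. Of the probe sets that passed, 56.7% were higher in linalool rats, and 94.9% were so with each array centred on its median. The groups overlapped for all 12, where 11.9% of all probe sets had groups that did not. Adjusted p ran between 0.118 and 0.944. The direction was higher in linalool rats for 7 probe sets and lower for 5, with a median of 0.200 residual SDs against -0.01 over all. At an unadjusted p under 0.05 there was 1 of the 12, beside 37.7% of all. Of the 45 bacterial and phage control probe sets, whose targets are not rat RNA, 15 (33.3%) also passed this test, against 0 of 45 between stress and control rats. Array processing and odour cannot be told apart in the linalool set.

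Penk ran between 10.52 and 11.17 with a median of 10.62 in linalool rats, against 10.00 and 11.03 with a median of 10.42 in stress rats. All 6 linalool rats lay above the stress median, and stress rat 2 exceeded 5 of them. Penk averaged 10.74 ± 0.264 in linalool rats and 10.48 ± 0.347 in stress rats (SD, n = 6 each). The difference was 0.26 log2 units (SE 0.174, 95% interval -0.12 to 0.65, limma adjusted p = 0.300). Pdyn ran between 8.82 and 9.60 with a median of 9.26 in linalool rats, against 8.77 and 9.33 with a median of 9.08 in stress rats. It differed by 0.19 (SE 0.131, 95% interval -0.10 to 0.48, limma adjusted p = 0.313), and its second probe set by 0.33 residual SDs. Linalool rats 2 and 5 lay above all stress rats for Pdyn, at 9.49 and 9.60, while linalool rat 1 lay close to the lowest stress rat. Pnoc differed by 0.69 residual SDs (95% interval -0.56 to 1.95).

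Tac1 ran between 9.25 and 10.03 with a median of 9.76 in linalool rats, against 9.23 and 9.67 with a median of 9.37 in stress rats. Of the 6 linalool rats 5 lay above the stress median, while linalool rat 3 was near the lowest stress rat. Tac1 averaged 9.69 ± 0.289 in linalool rats and 9.44 ± 0.176 in stress rats (SD, n = 6 each). The difference was 0.26 log2 units (SE 0.135, 95% interval -0.04 to 0.56, limma adjusted p = 0.199). Tac3 ran between 7.81 and 8.62 with a median of 8.19 in linalool rats, against 8.03 and 8.48 with a median of 8.38 in stress rats. The linalool rats lay on both sides of the stress rats, and the difference was -0.08 (95% interval -0.40 to 0.24, limma adjusted p = 0.743).

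The delta receptor gene Oprd1 was the probe set nearest to the threshold. Its deviations ran between -1.83 and 1.19 residual SDs in linalool rats and between -0.485 and 1.64 in stress rats. Of the linalool rats 1, rat 3, lay above the stress median. The difference was -1.31 residual SDs (95% interval -2.57 to -0.05, unadjusted p = 0.0425 and adjusted p = 0.118 in limma, exact permutation p = 0.0563). Without linalool rat 3 it was -2.07, with a limma adjusted p of 0.0338, so 1 rat decided on which side of the threshold it fell. Oprm1 differed by -0.21 residual SDs on 1387461_at and by -1.04 on 1369109_at, where none of the 6 linalool rats lay above the stress median (95% interval -2.29 to 0.21). Oprk1 differed by 1.05, 0.07 and -0.23 on its 3 probe sets. With quantile normalization Oprd1 turned to 1.54 and Oprm1 on 1387461_at to 1.71, so the direction of the receptor genes is not settled between scalings. With each array centred on its median the 8 compressed probe sets all passed as higher in linalool rats, beside 93.4% of all probe sets.

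**Figure D2:**
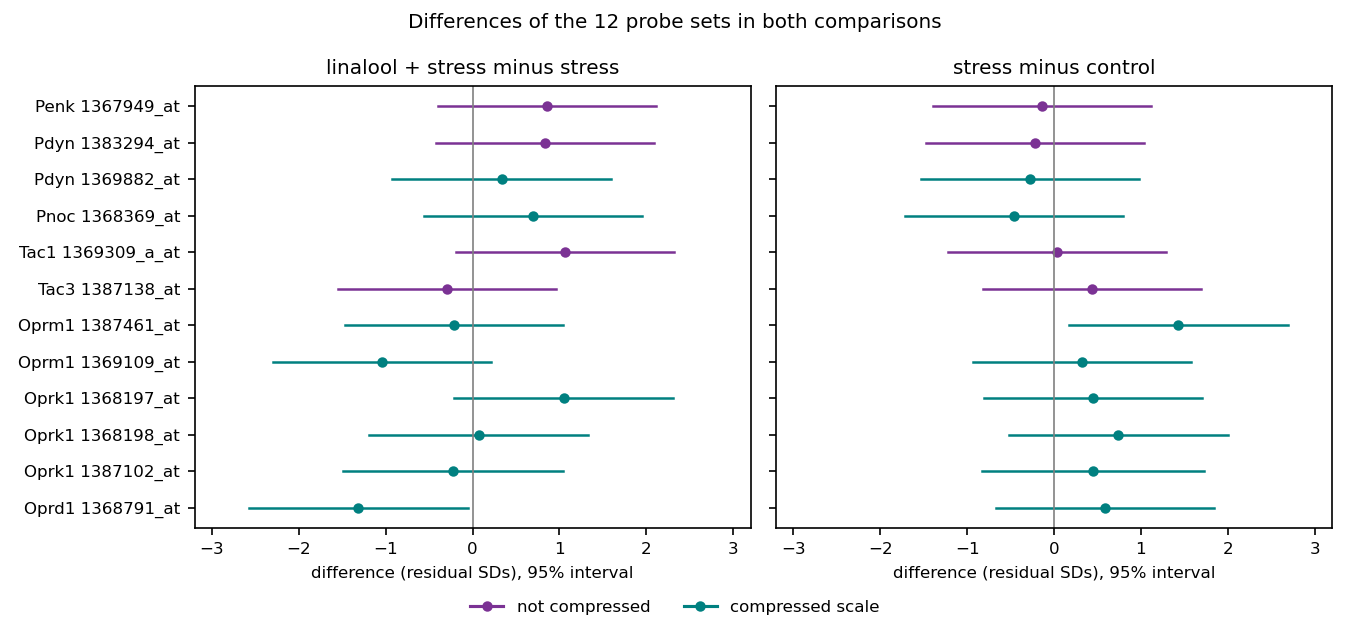
Difference in residual SDs (horizontal axes) with its 95% interval for the 12 probe sets, linalool minus stress rats on the left and stress minus control rats on the right. Violet marks the 4 probe sets on an open scale and teal the 8 on a compressed scale; the intervals of Oprm1 1387461_at (right) and Oprd1 (left) end short of 0, and neither passed after adjustment.

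The 4 open-scale probe sets had a wide spread between rats of the same group, while the other 8 are compressed like most of the array. In the stress and control set the residual SD of Penk was larger than that of 99.1% of all probe sets, that of Tac3 than 98.9%, that of Pdyn than 98.4% and that of Tac1 than 95.8%. In the linalool and stress set these shares were 98.9% for Penk, 98.3% for Tac3, 97.8% for Pdyn and 98.0% for Tac1. Any open-scale probe set exceeds the compressed ones, 83.5% and 83.7% of the 2 sets, so such shares are high by definition. Among open-scale probe sets the median residual SD was 0.143 in the stress and control set. Penk had 0.414 there, Tac3 0.382, Pdyn 0.334 and Tac1 0.215. In the linalool and stress set that median was 0.103, beside 0.308, 0.255, 0.231 and 0.239 for the same genes.

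Penk, Pdyn and Tac1 varied together over the 12 stress and control rats, as deviations from the group means. Penk and Pdyn correlated at r = 0.864 (Spearman 0.825, permutation p = 0.0007 and 0.0031, adjusted p = 0.00538 and 0.0210), with r = 0.822 without the 2 rats farthest from the Penk median. Penk and Tac1 correlated at 0.854 and Pdyn and Tac1 at 0.802. These 3 pairs join open-scale probe sets, and they passed again after quantile normalization and after median centring of the arrays. Of all 28 pairs of genes, 10 passed an adjusted permutation p of 0.05 with Pearson's r and 9 with Spearman's rho. No pair with Tac3 passed, its highest r being 0.701 with Pdyn, and Pnoc and Tac1 did not pass either.

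The pairs with a compressed probe set depended on the scaling. As deposited, 5 pairs of an open-scale peptide with a compressed gene passed, with r between 0.820 and 0.858: Penk with Pnoc and Oprk1, Pdyn with Pnoc and Oprk1, and Tac1 with Oprk1. After quantile normalization or median centring their r lay between -0.40 and 0.045 and none of them passed. The other 2 pairs, Pnoc with Oprk1 at 0.847 and Oprm1 with Oprd1 at 0.694, join compressed probe sets. They passed under all 3 scalings, but after rescaling all 6 pairs among the 4 compressed genes did so. With the 2 farthest rats left out of each of the 10 pairs, r lay between 0.578 and 0.840, and 0 pairs passed with 10 rats. Each gene enters by its main probe set alone. For Oprk1 that is 1368197_at, which correlated at 0.449 with 1368198_at and at 0.867 with 1387102_at over the 12 rats. In the linalool rats these values were 0.0870 and -0.138, so the Oprk1 pairs hold for 1 probe set only.

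In the 6 linalool rats, which took no part in those values, Penk and Pdyn correlated at 0.861, and at 0.864 and 0.862 after quantile normalization and median centring. Tac1 correlated there at 0.441 with Penk and at 0.0622 with Pdyn. The 5 pairs that join an open-scale and a compressed probe set had r between 0.454 and 0.846 as deposited, and between -0.31 and 0.380 after rescaling. None of the 28 pairs passed an adjusted exact permutation p in these 6 rats, the smallest unadjusted p being 0.0208. Between the 2 sets of rats, no difference in r was tested. Linalool rat 5 was the highest of its group for Penk, Pdyn and Tac1, and control rat 2 was the lowest of its group for these and for Tac3.

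**Figure D3:**
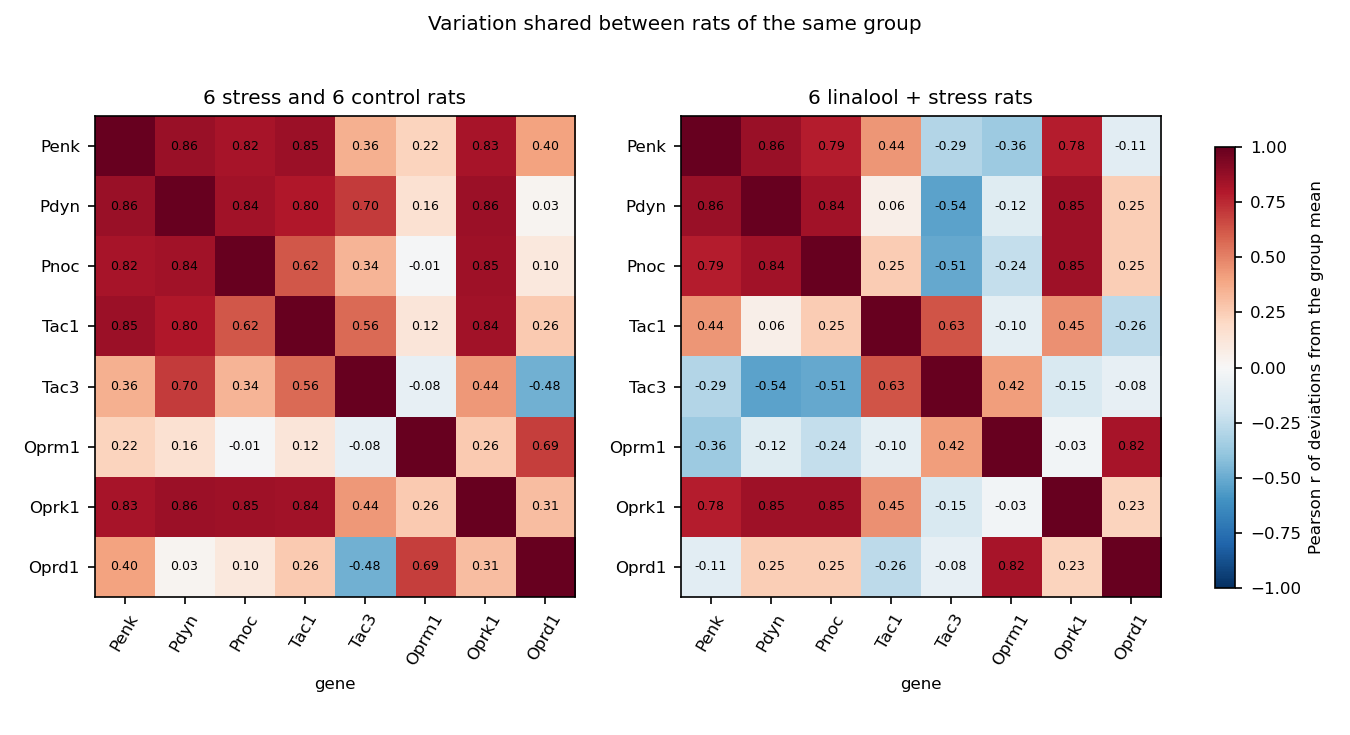
Pearson r (colour and printed value) between the main probe sets of the 8 genes, on deviations from group means, in 6 stress and 6 control rats (left) and in 6 linalool rats (right). The values are those of the deposited scaling; Penk with Pdyn is red in both panels and keeps its r under the other scalings, while Penk or Pdyn with Pnoc or Oprk1 does not.

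**Figure D4:**
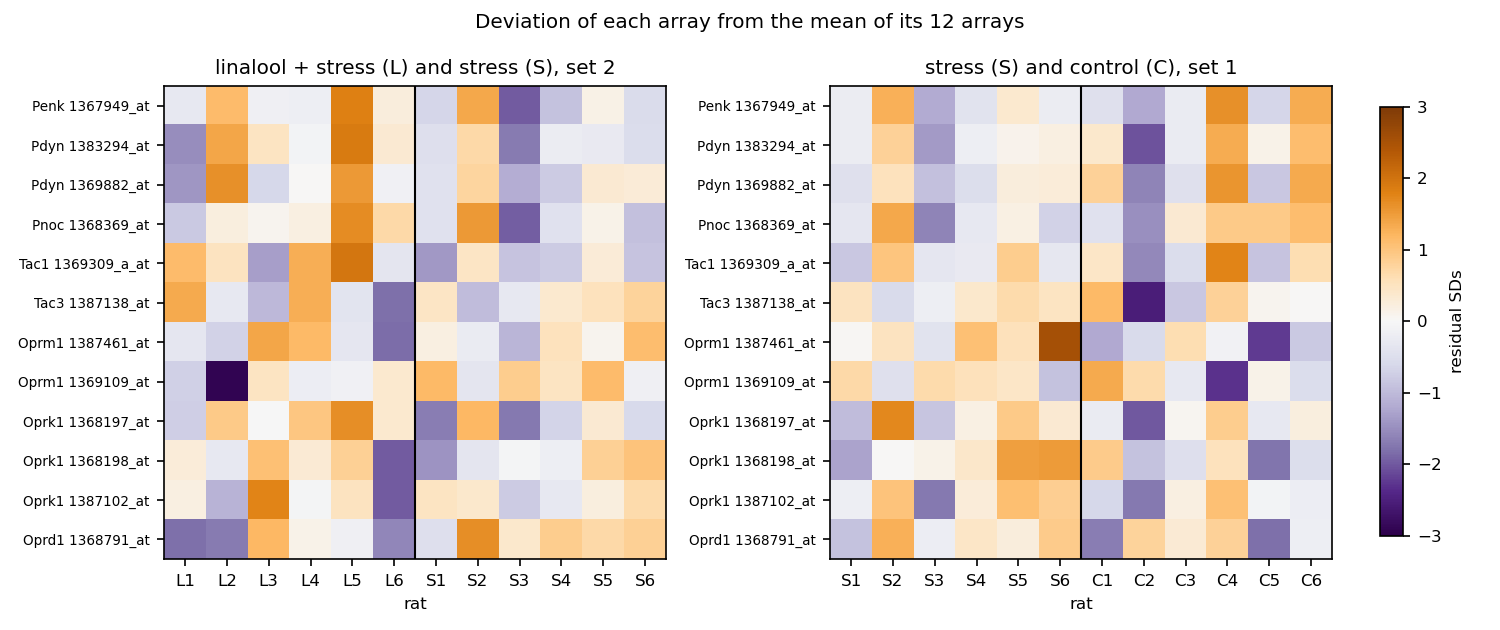
Deviation of each array (columns) from the mean of its 12 arrays, in residual SDs (colour), for the 12 probe sets (rows): linalool and stress rats on the left, stress and control rats on the right. Linalool rat 5, stress rat 2 and control rats 4 and 6 are orange over the upper rows, and control rat 2 is purple.

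Markers of neighbouring brain regions moved with Penk. A score was formed as the mean deviation, in residual SDs, of 12 striatum markers, none of them one of the 8 genes, and likewise for 12 thalamus and 16 hypothalamus markers. Of the 24 relations of 8 genes with 3 scores, 9 passed an adjusted permutation p of 0.05 with Pearson's r over the 12 stress and control rats and 2 with Spearman's rho. Penk correlated with the striatum score at r = 0.939 (Spearman 0.790, adjusted permutation p = 0.00912 and 0.0536), and at 0.840 and 0.843 after quantile normalization and median centring. Without the 2 rats farthest from the median of the score, r was 0.876. For each score below, the 2 farthest rats are likewise those farthest in that score. For Tac1 r was 0.839 (Spearman 0.699, adjusted permutation p = 0.0112 and 0.0664), with 0.812 and 0.801 after rescaling and 0.660 without those rats. Oprk1 had r = 0.719 and Pnoc r = 0.707, which passed as deposited, but 0.149 and 0.334 after quantile normalization. Pdyn at 0.704 and Tac3 at 0.213 did not pass.

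The striatum score is uneven over the rats. Stress rat 2 and control rats 4 and 6 lay at 1.02 to 1.57 from their group means, and the other 9 between -0.754 and 0.404. These 3 rats had the 3 highest Penk values, 11.02 in stress rat 2 and 11.16 and 11.04 in control rats 4 and 6. Over the 9 rats without those 3, Penk correlated with the score at r = 0.697 (Spearman 0.5, permutation p = 0.0766 and 0.413, adjusted p = 0.244 for Pearson's r over 8 genes), which did not pass. The deviations are still those from the means of all 6 rats of a group, so this r also holds an offset between the groups. In the linalool group rat 5 had the highest score and the highest Penk, and Penk correlated with the score at 0.884 over the 6 rats (Spearman 0.943, exact permutation p = 0.00417 and 0.0167, adjusted p = 0.1 and 0.4 over 24 relations).

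Unlike the striatum score, the thalamus score ran against Penk. Over the 12 stress and control rats Penk correlated with it at r = -0.862 (Spearman -0.832, adjusted permutation p = 0.0112 and 0.0203), at -0.753 without the 2 farthest rats, and at -0.854 and -0.858 after quantile normalization and median centring. For Pnoc r was -0.775 as deposited (Spearman -0.853, adjusted permutation p = 0.0266 and 0.0203) but 0.0937 and 0.224 after rescaling. With the hypothalamus score Pdyn had r = 0.849 (Spearman 0.713, adjusted permutation p = 0.0112 and 0.0664), with 0.519 without the 2 farthest rats and 0.212 and 0.228 after rescaling. Penk had r = 0.698 with that score, with 0.143 and 0.189 after rescaling, and Oprk1 r = 0.754, with 0.677 and 0.755. The other compressed genes came to a like level after rescaling: Pnoc 0.743 and 0.811, Oprm1 0.725 and 0.747, Oprd1 0.697 and 0.740. As deposited these had r of 0.657, 0.399 and 0.103. Of the 16 hypothalamus markers 7 are compressed too, so the rescaled values do not single out Oprk1. As deposited, neither Oprm1 nor Oprd1 passed with any score. In a tissue block, fewer cells of a type and less RNA per cell cannot be told apart.

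These scores were not tested between linalool and stress rats, and their ranges overlapped. The thalamus score ran between -1.56 and 0.217 in linalool rats and between -0.976 and 1.66 in stress rats. Its median was -0.53 in linalool rats and 0.747 in stress rats. The 12 thalamus genes had a median difference of -1.35 residual SDs, against 0.223 over all genes. Past the threshold, 2 of the 12, Rora and Ntng1, fell in linalool rats (16.7%, beside 28.3% of all genes). The hypothalamus score had its median at 0.344 in linalool rats and -0.45 in stress rats, with 1 of 16 genes past the threshold. The striatum score ran between -0.721 and 1.72 in linalool rats and between -0.485 and 1.54 in stress rats, with 0 of 12 genes past the threshold. With the striatum score as a covariate the Penk difference was 0.31 log2 units (SE 0.0897, limma adjusted p = 0.0315), and Oprk1 on 1368197_at also passed at 1.85 residual SDs (adjusted p = 0.0426). With the thalamus score as the covariate the Penk difference was -0.15 log2 units (SE 0.111, adjusted p = 0.416) and Oprk1 stood at -0.03 residual SDs. The estimate for Penk thus differed between the 2 covariates, and with the thalamus score it did not pass. The medians of that score lay apart in linalool and stress rats, at -0.53 and 0.747. This fit therefore cannot tell the score from the odour. The part of the dissection in the result was not tested. Between stress and control rats Penk differed by -0.01 log2 units with the striatum score and 0.16 with the thalamus score, and no probe set passed with either.

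**Figure D5:**
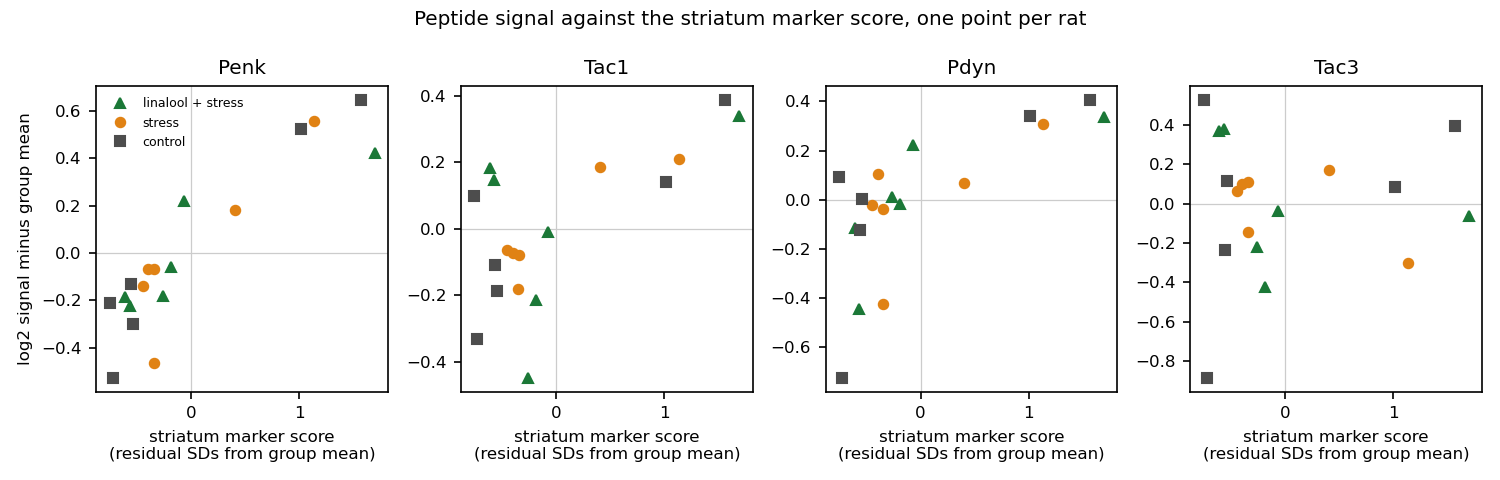
Log2 signal minus the group mean (vertical axes) of Penk, Tac1, Pdyn and Tac3 against the striatum marker score minus its group mean (horizontal axes, residual SDs), 1 point per rat: linalool (triangles), stress (circles) and control (squares). The 3 stress and control rats above 1 hold the 3 highest Penk points, and Tac3 shows no such pattern.

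Over all 14217 genes, those most alike to each member were named by Pearson r on the 12 stress and control rats, with r in the 6 linalool rats beside it. For Penk these were Rgs9, a G-protein regulator on the striatum list, at 0.973 (linalool 0.866), LOC100912227 at 0.961 (0.782) and the phosphodiesterase gene Pde8b at 0.954 (0.715). After quantile normalization the first 2 kept r of 0.974 and 0.959, while Pde8b had -0.057. For Pdyn they were Ecel1 at 0.987 (linalool 0.945), Tro at 0.980 (0.928) and the calcitonin receptor gene Calcr at 0.976 (0.967), and they had 0.986, 0.982 and 0.975 after quantile normalization. Tac1 was most alike to Prkar2b, a subunit of protein kinase A, at 0.949 (0.580), followed by the receptor genes Gpr149 at 0.931 (0.549) and Gpr6 at 0.927 (0.567), of which Gpr6 had -0.091 after quantile normalization. For Pnoc they were Ntrk3, N4bp2 and Htr3a, and for Oprk1 Tmx4, Pds5b and Tle4. Tac3 was most alike to Tmem17, Akap9 and Plxnc1, with r = -0.684 for Akap9 in the linalool rats beside 0.952 in the stress and control rats. Oprm1 was nearest to Nup107, Apoh and Prdm1, and Oprd1 to Gp9, Bpifb6 and Srsf7. After quantile normalization N4bp2 had -0.35 with Pnoc, and Tmem17 -0.40 and Akap9 0.0044 with Tac3, while Plxnc1 had 0.947. With Oprk1, Tmx4 had -0.17, Pds5b 0.400 and Tle4 0.346, against 0.928, 0.923 and 0.913 as deposited. Under median centring Pds5b, Tle4 and all the genes named for Oprm1 and Oprd1 had r of 0.99977 or more. All those named are the highest of 14217 values and were picked for being high.

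The other genes of the pathway were read from 5 lists of 89 measured genes in all. Between stress and control rats 0 of the 89 passed the limma test, beside 0.598% of all genes. The closest member of the neurokinin system was Tacr3, the receptor for neurokinin B, at 1.96 residual SDs (SE 0.570, limma unadjusted p = 0.00596, adjusted p = 0.162), with overlapping groups. Tacr1 stood at -0.36 and Tacr2 at -0.12 residual SDs, and the nociceptin receptor gene Oprl1 at 1.12.

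Between linalool and stress rats 21 of the 89 passed, beside 28.3% of all genes. Of 21 genes for peptide processing and degradation 4 rose and 4 fell in linalool rats, with a median of 0.311 residual SDs against 0.223 over all genes. Ctsl, the gene of cathepsin L, a protease that also acts on prohormones, averaged 11.21 ± 0.0890 in linalool rats and 10.87 ± 0.0770 in stress rats (SD, n = 6 each). It rose by 0.34 log2 units (SE 0.0471, limma adjusted p = 0.000783), with no overlap. The enkephalin-degrading aminopeptidase Npepps fell by 3.34 residual SDs (limma adjusted p = 0.00240) and Prep, prolyl endopeptidase, rose by 2.96 (adjusted p = 0.00473), both on a compressed scale. Of 38 genes of receptor signalling 2 rose and 6 fell, with a median of -0.79. The G-protein alpha subunit genes Gnaz and Gna11 fell by 0.07 and 0.18 log2 units (SE 0.00833 and 0.0295, limma adjusted p = 0.000371 and 0.00218), each without overlap.

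Of 17 activity and cAMP-dependent regulators 1 rose and 2 fell, among them the transcription factor Atf2, which fell by 2.90 residual SDs (limma adjusted p = 0.00514). Of 10 genes of arcuate neurons 1 rose, Npy, the neuropeptide Y gene, by 0.31 log2 units (SE 0.0664, limma adjusted p = 0.00781). Of the 7 genes on the list for other opioid and tachykinin genes none rose and 1 fell, Ogfrl1, by 0.39 (limma adjusted p = 0.00697). Ogfrl1 is a relative of the opioid growth factor receptor gene and is not an opioid or tachykinin peptide or receptor gene. Oprl1 stood at -0.70, Tacr1 at 0.26, Tacr2 at -0.65 and Tacr3 at -0.36 residual SDs, and none of these passed. The shares of the lists stand on both sides of the 28.3% over all genes, 38.1% for processing and degradation and 21.1% for receptor signalling.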

How the data were processed

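Hypothalamic RNA of 18 rats was measured on 1 array each, labelled from 500 ng of total RNA per the labels' protocols. The authors deposited 1 value per probe set and array, between 5.59 and 14.93, which was taken as a log2 signal because of that range. The sources used here do not give the summarization or the normalization method, except that, per the series' design text, normalization was done in 2 sets that share the stress arrays. All 24 value columns were used, and 57 array control probe sets were left out of the gene tests.

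Probe sets were assigned by gene_symbol (20826 with 1 symbol, 436 with several, 9780 with none listed). Of those with 1 symbol, 20758 matched RefSeq's GRCr8 gene table by gene ID and 0 differed. Where a gene has several probe sets, its main one has the highest mean over all columns. The linear model (R 4.3.3, limma 3.58.1) used eBayes over 31042 probe sets per comparison, with two-sided tests, Benjamini-Hochberg adjustment and a threshold of 0.05. The code was tested on simulated data. Correlations used 100000 permutations within groups for 12 arrays and all orders for 6 (Python 3.11.15, numpy 2.4.6).

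The 8 genes and the 16 gene lists were chosen with earlier results of these data known, and lists support nothing independently. Named were all 12 probe sets, up to 6 pathway genes per comparison past the threshold with the smallest p (Gnaz, Ctsl, Gna11, Npepps, Prep and Atf2), and the 3 genes most alike to each member. The receptor genes Oprl1, Tacr1, Tacr2 and Tacr3, the list members Npy and Ogfrl1, which were the only calls of their lists, the thalamus markers Rora and Ntng1, and Avp, Oxt, Pmch and Pomc were named after their values were seen.

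The labels describe separate rats. Same-numbered rats correlated at 0.0846 to 0.253 between stress and control, over 0.1 for 4 of 6 numbers, and at -0.12 to 0.197 between linalool and stress, over 0.1 for 1 of 6. The labels give no pairing, so the numbers were not taken as pairs. Between stress and control the own number still correlated best for 3 of 6, and a fit with the number as a block is given below.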

Additional observations from a re-analysis of the deposited data

Results flagged for a closer look

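Among the 48 groups of 6 values (12 probe sets in 4 groups), 1 rat stood apart from its group. Linalool rat 2 had the lowest value of Oprm1 on probe set 1369109_at, and its gap to the next rat was 0.653 of the range of the group, or 2.22 residual SDs. Chance alone sets apart about 1 in 20 groups. The probe set is on a compressed scale, and the other Oprm1 probe set did not single out this rat.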

How the results depend on the processing

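No limit of depth applies to arrays; their number and the compressed scale limit what could be seen. For stress against control no setting moved the count of 0 member probe sets past limma's adjusted threshold (leaving out 1 rat gave 0 in all 12 fits), and the exact permutation test gave 1 at an unadjusted p, Oprm1. Over all probe sets 172 passed, with 77 under quantile normalization, 92 under median centring, 101 with 1 probe set per gene, 91 with probe sets averaged per gene, 95 with the thalamus score, 1 without control rats 4, 5 and 6 (high in meningeal markers), and 24 to 205 leaving out 1 rat. The replicate number as a block gave 16. It changed no call of a member and gave 5548 for linalool, and own numbers correlated best for 3 of 6 and 1 of 6. For linalool against stress the 7763 became 2608 under quantile normalization, 28990 under median centring, 4229 with 1 probe set per gene, 4380 with averages per gene, 3869 with the thalamus score and 6383 to 7466 leaving out 1 rat. Member calls went to 8 under median centring, 2 with the striatum score and 0 to 1 leaving out 1 rat. The 21 pathway genes became 8 under quantile normalization, 70 under median centring, 5 with the thalamus score and 15 to 24 leaving out 1 rat; between stress and control 0 to 1. Median centring shifts every probe set by the difference of array medians, which exceeds a compressed spread; of its calls 94.9% were higher, against 56.7% without it. The 10 pairs of genes past the threshold became 9 under quantile normalization and under median centring, of which 5 were the same pairs. They went to 0 without the 2 farthest rats of each pair, 5 without control rats 4, 5 and 6, and 0 in the 9 rats of low striatum score (12 at an unadjusted permutation p). Without the 2 farthest rats and in the 9 rats, deviations stayed those from the means of all 6 rats of a group. An offset between the groups can enter those correlations. The score covariates, the scalings of the score and likeness correlations, the 9 rats and the pairs without control rats 4 to 6 were chosen after seeing the data.

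Signs turned in these cases, in residual SDs. For linalool against stress, quantile normalization gave 1.54 for Oprd1, 1.74 for Oprk1 1387102_at and 1.71 for Oprm1 1387461_at, and median centring 1.42, 1.47 and 1.43 for these and 1.37 for Oprm1 1369109_at. The thalamus score gave -0.031 and -0.21 for Oprk1 1368197_at and 1368198_at, -1.07 and -0.34 for Pdyn 1369882_at and 1383294_at, -0.99 for Penk, -0.66 for Pnoc and 0.038 for Tac3. Leaving out 1 rat gave -0.23 to 0.63 for Oprk1 1368198_at, -0.76 to 0.19 for Oprk1 1387102_at, -0.57 to 0.16 for Oprm1 1387461_at and -0.66 to 0.043 for Tac3. For stress against control, quantile normalization gave 0.69 for Pdyn 1369882_at and 1.14 for Pnoc, median centring 1.10 and 1.13, and array weights -0.16 for Tac1. Without control rats 4 to 6 the values were -0.57 for Oprm1 1369109_at, 0.36 and 0.58 for Pdyn 1369882_at and 1383294_at, 0.76 for Penk and 0.31 for Pnoc. With the thalamus score they were -0.062, 0.065, 0.17, 0.75 and 0.025 for the same probe sets. Leaving out 1 rat gave -0.14 to 0.69 for Oprm1 1369109_at, -0.75 to 0.015 and -0.93 to 0.040 for the Pdyn probe sets, -0.43 to 0.20 for Penk, -0.30 to 0.49 for Tac1 and -0.045 to 0.77 for Tac3. No cause beyond those given was tested.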
